A study of Mus musculus with 36 samples.

Results

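Resting cortical neurons lacking Actl6b were compared with wild-type (WT) neurons in 12 RNA-seq libraries, 7 knockout (KO) and 5 WT, out of 24 RNA libraries and 36 samples in the series. The members are the resting RNA libraries, chosen by genotype and treatment: KO is labelled ACTL6B -/- and WT wild type. Both genotypes were primary cortical neurons taken from mouse embryos at E16.5 and grown for 7 days in vitro. All 12 cultures had 2 h of TTX and APV before harvest and no KCl. The sources used here do not give the strain, the sex of the embryos or how the allele was made. The series calls the cultures biological replicates, each known by a 2-part code such as KO 3-5.

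BAF complexes are ATP-dependent chromatin remodellers of the SWI/SNF family. When neural progenitors leave the cell cycle, the actin-related subunit ACTL6A is replaced by ACTL6B, and this exchange is one of those that turn a progenitor complex into a neuronal one. TTX blocks voltage-gated sodium channels and APV blocks NMDA receptors, and the pair is used to silence neuronal activity before RNA is taken. The title of the series names early response genes, those switched on within minutes of activity, as the genes released from repression.

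The files list 115270 transcripts by identifier, and 0 identifiers had a match in the gene tables used here. The level of Actl6b and of cell type markers was therefore not analysed here, the genotype labels were not checked against the targeted gene, and transcripts are described by level, length and size of change. The libraries held 6135380 to 7480900 estimated counts in KO and 5873350 to 7578710 in WT. The first principal component of log2 CPM (estimated counts per 1e6 counts of the library), with 15.2% of the variance, set KO 4-8 (-159) apart from the other 11 libraries (-54.0 to 58.7). The second component, with 11.9%, placed 6 KO libraries between -91.5 and -1.23 and KO 4-8 at 18.3, against 10.6 to 100.7 in WT.

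In Actl6b KO neurons most of the changes called were modest and few were large. Of 32904 transcripts tested, 966 (2.94%) had an adjusted p under 0.05 in edgeR's quasi-likelihood test, 429 (1.30%) higher and 537 (1.63%) lower in KO. Of the higher transcripts 156 (0.474% of those tested) rose at least 2-fold, and 92 of the lower ones (0.280%) fell as far. On the log2 scale, 95 rises and 183 falls were smaller than 0.5, and 24 rises and 11 falls were larger than 2. Among the higher calls 27 had no WT library at the low-count filter's limit of 1.51 CPM and entered the test through KO alone. Among the lower calls 6 had no KO library there. The higher calls also had a lower median level than the lower ones, and at low levels only large changes were called. The sizes of rises and falls are therefore given as a description and not compared. Over all transcripts tested the median log2 fold change was 0.01, with the middle 50% between -0.24 and 0.26. Without adjustment, 4791 transcripts (14.6%) had a p under 0.05 in the same test, 2423 (7.36%) higher and 2368 (7.20%) lower. In cultures of mixed cells, fewer cells of a type and less RNA per cell cannot be told apart in such differences.

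The higher transcripts summed to 30230 ± 1646 CPM in 7 KO cultures and 20020 ± 1006 CPM in 5 WT cultures (mean ± SD). The lower ones summed to 42890 ± 3248 CPM in 7 KO cultures and 62290 ± 1413 CPM in 5 WT cultures (mean ± SD). The calls chose these sums, which are given as a description. The falling transcripts thus held more of the estimated counts in both genotypes than the rising ones. They were also more numerous (537 against 429) and longer (median 3698 against 3276 bases), and CPM is not per length. All called transcripts together took 7.70% of the counts.

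Several library properties touch these counts. The fragment length, read from the difference between length and effective length over transcripts longer than 2000 bases, was 207 ± 7.60 bases in 7 KO cultures and 197 ± 6.70 bases in 5 WT cultures (mean ± SD). It ran from 199 to 219 bases in KO and from 189 to 206 bases in WT, with 3 KO libraries above every WT library (two-sided exact permutation p = 0.0556, adjusted p = 0.240 over 5 library measures). With fragment length as a covariate, an alternative chosen after seeing the data, edgeR called 268 transcripts, 253 of them among the 966 in the same direction. With the effective length of each transcript as an offset it called 930, 923 of them shared. Leaving out one culture moved the count most for KO 3-2 (581 calls) and KO 4-7 (530), and for WT 3-4 (511), 3-7 (517), 4-2 (439) and 4-4 (474). Without KO 4-8, the culture set apart on the first component, there were 807. DESeq2 called 1898 transcripts, and edgeR without a low-count filter 456.

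**Figure D1:**
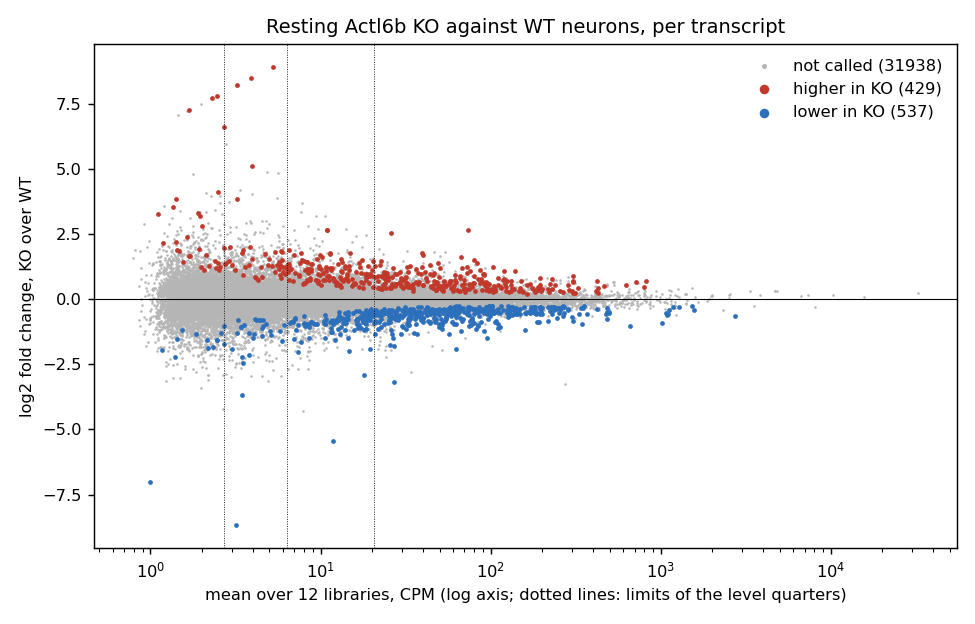
Each point is a transcript, with its mean over the 12 libraries in CPM on a log axis and its log2 fold change, KO over WT, on the vertical axis. The 429 higher (red) and 537 lower (blue) transcripts reach small changes only at high levels, and the largest changes lie at low levels.

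The tested transcripts were split into 4 classes of 8226 by mean level, and the share of calls that were higher in KO was 68.2% in the lowest class (30 higher, 14 lower), 60% in the next (42 and 28), 51.3% in the third (121 and 115) and 38.3% in the highest (236 and 380). No test was made of this order, since transcripts are not replicates. In the lowest class 21 of the 30 higher transcripts had no WT library at the filter's limit of 1.51 CPM and entered through KO alone, and 5 of the 14 lower ones entered through WT alone, which leaves 9 of each. In the next class 6 of the 42 higher and 1 of the 28 lower ones entered in this way, so the balance in these classes is not read as a result. No call in the third or the highest class did so. Across 25 alternatives the share of higher calls ran from 53.7% to 72.7% in the lowest class and from 34.7% to 50.8% in the highest, where it passed 50% only without WT 4-3.

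The median standard error (SE) of a log2 fold change was 0.47 in the lowest class, with a median level of 1.88 CPM, and 0.13 in the highest, with 47.5 CPM. The smallest change called was 1.02 on the log2 scale in the lowest class, 0.72 in the next, 0.38 in the third and 0.20 in the highest. In the lowest class no change below 2-fold was called. Called transcripts had a median log2 fold change of 1.96 and -1.55 in the lowest class and of 0.57 and -0.51 in the highest, rises before falls. The percentage called was 0.535% in the lowest class and 7.49% in the highest.

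Among the 100 most abundant transcripts 2 were higher and 10 lower in KO (12% called), and among the 1000 most abundant 40 were higher and 73 lower (11.3%), against 2.94% called and 429 higher and 537 lower over all transcripts tested. In the highest level class, which is nearer in level, 7.49% were called, 236 higher and 380 lower. The sets of 100 and 1000 were not recomputed under the alternatives, and in the highest level class the calls were 237 higher and 230 lower without WT 4-3. Changes among the 1000 were small, with median log2 fold changes of 0.43 and -0.44, and 0 of the higher and 2 of the lower ones changed at least 2-fold.

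Longer transcripts were called more often. By length, each class running up to but not including its upper limit, the percentage called was 1.23% under 500 bases, 1.07% from 500 to 1000, 2.65% from 1000 to 2000, 2.63% from 2000 to 4000, 4.37% from 4000 to 8000 and 8.12% at 8000 bases or more. The longest class had the highest percentage, and one of the classes under 1000 bases the lowest, under each of 25 alternatives. The longest class held 36 higher and 60 lower calls among 1182 transcripts, and the shortest 7 and 6 among 1054. The median log2 fold change of all tested transcripts differed little between length classes, from -0.02 under 500 bases to 0.01 in the classes from 1000 to 8000 and 0.00 at 8000 bases or more. No class had a median further from 0 than 0.02.

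Level and length went together, on a scale that is not per length: the median was 3.47 CPM under 500 bases and 43.1 CPM at 8000 or more. Within the highest level class the percentage called was 1.80% under 500 bases, 2.87% from 500 to 1000, 7.16% from 1000 to 2000, 7.37% from 2000 to 4000, 7.86% from 4000 to 8000 and 11.1% at 8000 or more. In that class 28 transcripts of 8000 bases or more were higher and 57 lower, of 763 tested. In the third class 45 were higher and 29 lower of 2030 tested from 4000 to 8000 bases. At 8000 or more 7 were higher and 3 lower of 234 tested. Over all lengths the share of higher calls in the third class ran from 47.15% to 60.78% across 25 alternatives. The counts by level and length together were not recomputed under the alternatives, so their balance is not read as a result.

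**Figure D2:**
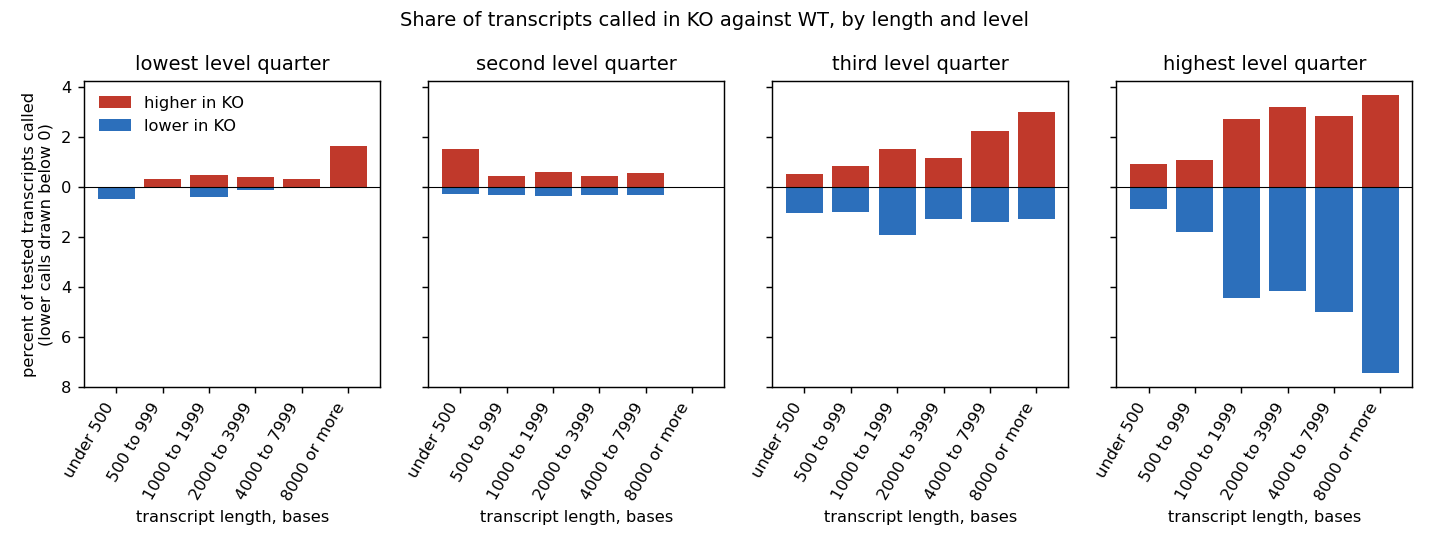
Bars give the percentage of tested transcripts called higher (red, above 0) and lower (blue, drawn below 0) in KO, by length class in bases, in 4 panels from the lowest to the highest level. The highest level class at 8000 bases or more carries the tallest lower bar, from 57 of 763 transcripts.

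Narrower bands of level, chosen after the values were seen, held level nearly constant. From 20 to 40 CPM the 4 classes of 1000 bases or more had 6.47%, 5.94%, 5.19% and 4.55% called, from short to long, and the class from 500 to 1000 had 2.45%. From 40 to 80 CPM the same 4 classes had 5.03%, 8.69%, 7.30% and 11.2% called, and the class from 500 to 1000 had 3.29%. From 80 to 160 CPM they had 12.5%, 7.85%, 11.5% and 11.8% called, and the class from 500 to 1000 had 1.59%, or 1 of 63. Above 1000 bases the longest class thus had the lowest percentage in the first band, the highest in the second and neither in the third. Precision differed as well: from 80 to 160 CPM the median SE was 0.14 from 500 to 1000 bases and 0.10 at 8000 bases or more.

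Whether the length composition of the RNA differed between genotypes was asked with 1 value per culture. Transcripts under 500 bases held 5.08% ± 0.551 of estimated counts in 7 KO cultures and 4.56% ± 0.273 in 5 WT cultures (mean ± SD), and 3 KO cultures lay above every WT culture. Transcripts from 2000 to 4000 bases held 27.6% ± 0.282 in 7 KO cultures and 27.9% ± 0.141 in 5 WT cultures (mean ± SD), and 6 of 7 KO cultures lay below every WT culture. Those of 8000 bases or more held 13.0% ± 0.396 in 7 KO cultures and 13.3% ± 0.352 in 5 WT cultures (mean ± SD). None of the 6 length classes passed the two-sided exact permutation test over 792 splits. The adjusted p-values over the 6 classes (permutation test) ran from 0.235 to 0.361 and the unadjusted ones from 0.0732 to 0.361.

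KO 3-3 stood apart in the class from 2000 to 4000 bases, at 28.2% against 27.3% to 27.6% in the other KO cultures and 27.7% to 28% in WT. Leaving it out, the KO minus WT difference was -0.370 percentage points (exact permutation, adjusted p = 0.0260), against -0.276 with all cultures (exact permutation, adjusted p = 0.235). With the 100 most abundant transcripts left out the difference had the other sign, 0.0317 percentage points (exact permutation, adjusted p = 0.972). The difference under 500 bases was then 0.00269 percentage points (exact permutation, adjusted p = 0.972), against 0.512 with all transcripts. The count-weighted mean length was 4344 ± 79.1 bases in 7 KO cultures and 4425 ± 68.1 bases in 5 WT cultures (mean ± SD), with 3 KO cultures below every WT culture (exact permutation p = 0.0960, adjusted p = 0.240). Without the 100 most abundant transcripts its KO minus WT difference was -9.674 bases (exact permutation, adjusted p = 0.871), against -80.85 bases with all. The number of transcripts with at least 1 estimated count was 55060 to 57470 in KO and 54310 to 57290 in WT, and these ranges overlap almost fully.

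**Figure D3:**
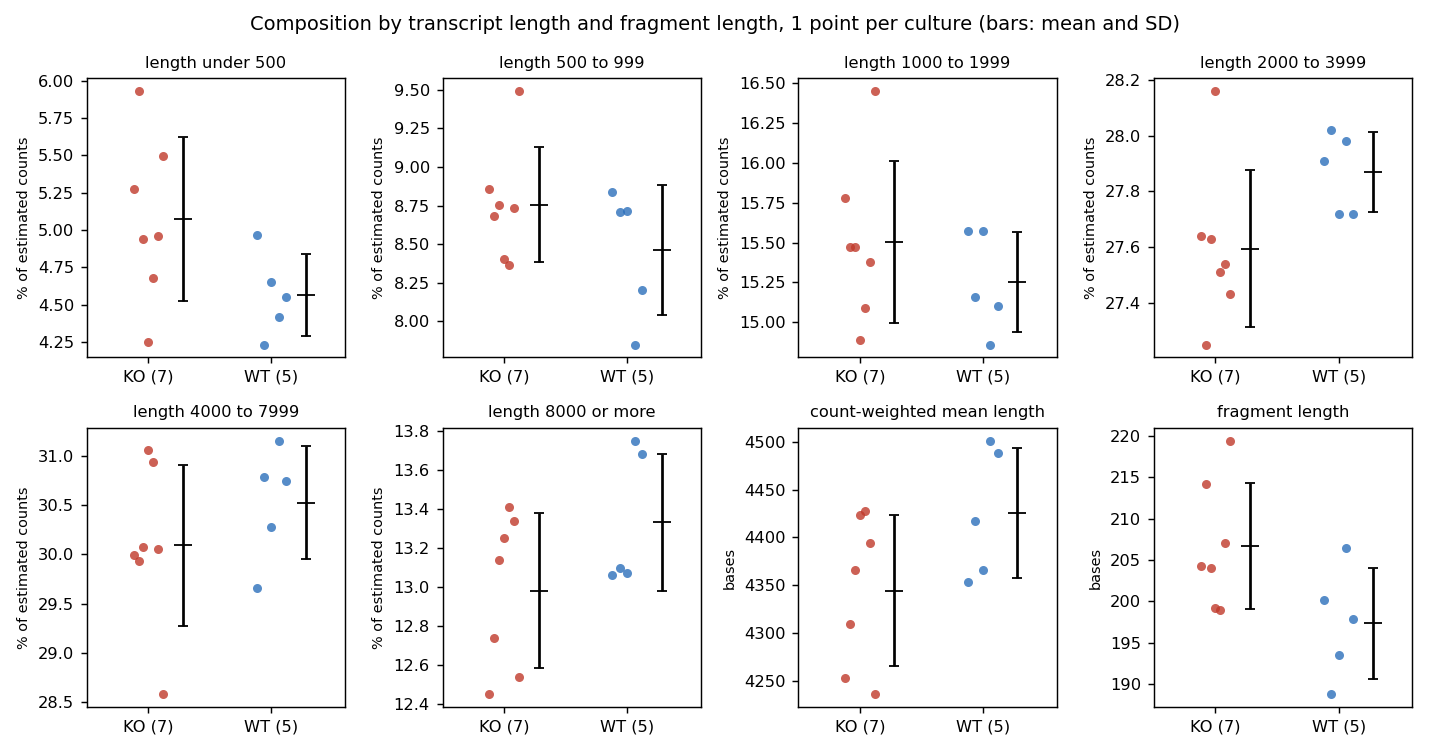
Each point is 1 culture, KO in red (7) and WT in blue (5), with the mean and SD beside it in black. The first 6 panels give the percentage of estimated counts by transcript length, and the last 2 the count-weighted mean length and the fragment length in bases; KO and WT overlap in all 8 panels.

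The largest changes are given for transcripts that had at least 1 estimated count in every library, a mean of at least 1 CPM, an adjusted p under 0.05 and no overlap between the genotypes. Of the calls, 331 higher and 450 lower transcripts met this; over all transcripts tested the log2 CPM values of KO and WT did not overlap in 3.72%. Log2 fold changes ran from 1.89 to 3.87 among the 12 largest rises and from -3.17 to -1.86 among the 12 largest falls. Several of these rises had no WT library at the filter's limit of 1.51 CPM, and some of the falls no KO library there. The sizes of rises and falls are therefore not compared. Long and short RNAs were among both: the lengths were 721 to 9332 bases for the rises and 359 to 5238 for the falls.

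ENSMUST00000020071.3, of 7355 bases, had 0.712, 5.93 and 10.3 CPM in KO (lowest, median and highest of 7). In WT it had 0.351, 0.266, 0.140, 0.681 and 0.294 CPM, which are 1 to 5 counts a library. The genotypes did not overlap, though KO 2-3, at 0.712 CPM, lay just above the highest WT culture. The log2 fold change was 3.87 (SE 0.64, edgeR adjusted p = 0.00763).

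ENSMUST00000062709.3, of 2206 bases, had 1.28, 3.08 and 4.26 CPM in KO (lowest, median and highest of 7). In WT it had 0.351, 0.266, 0.421, 0.136 and 0.294 CPM, 1 to 3 counts a library. Every KO culture was well above the WT cultures, and KO 2-3 was again the lowest. The log2 fold change was 3.30 (SE 0.38, edgeR adjusted p = 0.00104). Both of these transcripts were called under all 25 alternatives. Neither had a WT library at the filter's limit of 1.51 CPM, so both entered the main test through KO alone. Their size and lack of overlap are given as a description.

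Other large rises were also of rare RNAs, but 2 of the 12 lay in the highest level class. A transcript of 2536 bases had 53.5, 102 and 226 CPM in KO (lowest, median and highest of 7), against 15.4, 14.2, 15.9, 30.8 and 11.9 CPM in WT. It reached the highest level of the 12, and WT 4-3 carried the highest WT value. Its log2 fold change was 2.68 (SE 0.40, edgeR adjusted p = 0.00504).

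A short transcript of 721 bases had 21.4, 30.7 and 76.5 CPM in KO (lowest, median and highest of 7), against 9.30, 9.85, 5.19, 4.91 and 4.84 CPM in WT. All KO cultures had at least 136 estimated counts of it and no WT culture more than 74. Per length it was the most abundant of the 12, at a mean of 104 TPM (the deposited level per length) in KO and 18.9 TPM in WT. Its log2 fold change was 2.55 (SE 0.38, edgeR adjusted p = 0.00517), with 1.54 among cultures whose code starts with 3 and 2.97 among those starting with 4.

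Among the falls the largest was also the most precise of the 24. ENSMUST00000139395.7, of 1592 bases and the most reduced of the transcripts that met the rule, had 4.86, 6.12 and 8.23 CPM in KO (lowest, median and highest of 7). In WT it had 56.1, 64.5, 59.5, 49.6 and 51.7 CPM. Every KO culture lay far below every WT culture, and the log2 fold change was -3.17 (SE 0.13, edgeR adjusted p = 2.48e-07).

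ENSMUST00000058007.6, of 4275 bases, had 0.631, 1.28 and 1.56 CPM in KO (lowest, median and highest of 7), against 8.07, 9.05, 6.31, 3.14 and 6.75 CPM in WT. WT 4-3 was the lowest WT culture and still above every KO culture. Its log2 fold change was -2.44 (SE 0.30, edgeR adjusted p = 0.00149), and it was called under all 25 alternatives.

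The abundant end of the falls held a transcript of 4728 bases with 18.5, 28.7 and 44.1 CPM in KO (lowest, median and highest of 7), against 126, 106, 113, 101 and 100.1 CPM in WT. Even the highest KO culture was far below the lowest WT culture. The log2 fold change was -1.90 (SE 0.18, edgeR adjusted p = 5.96e-04). Another of 5238 bases had 3.94, 8.47 and 16.0 CPM in KO (lowest, median and highest of 7), against 35.1, 33.1, 33.8, 35.8 and 33.8 CPM in WT. The WT values were nearly equal and the spread lay in KO, with KO 3-5 and 4-8 the highest. Its log2 fold change was -1.92 (SE 0.31, edgeR adjusted p = 0.00699).

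**Figure D4:**
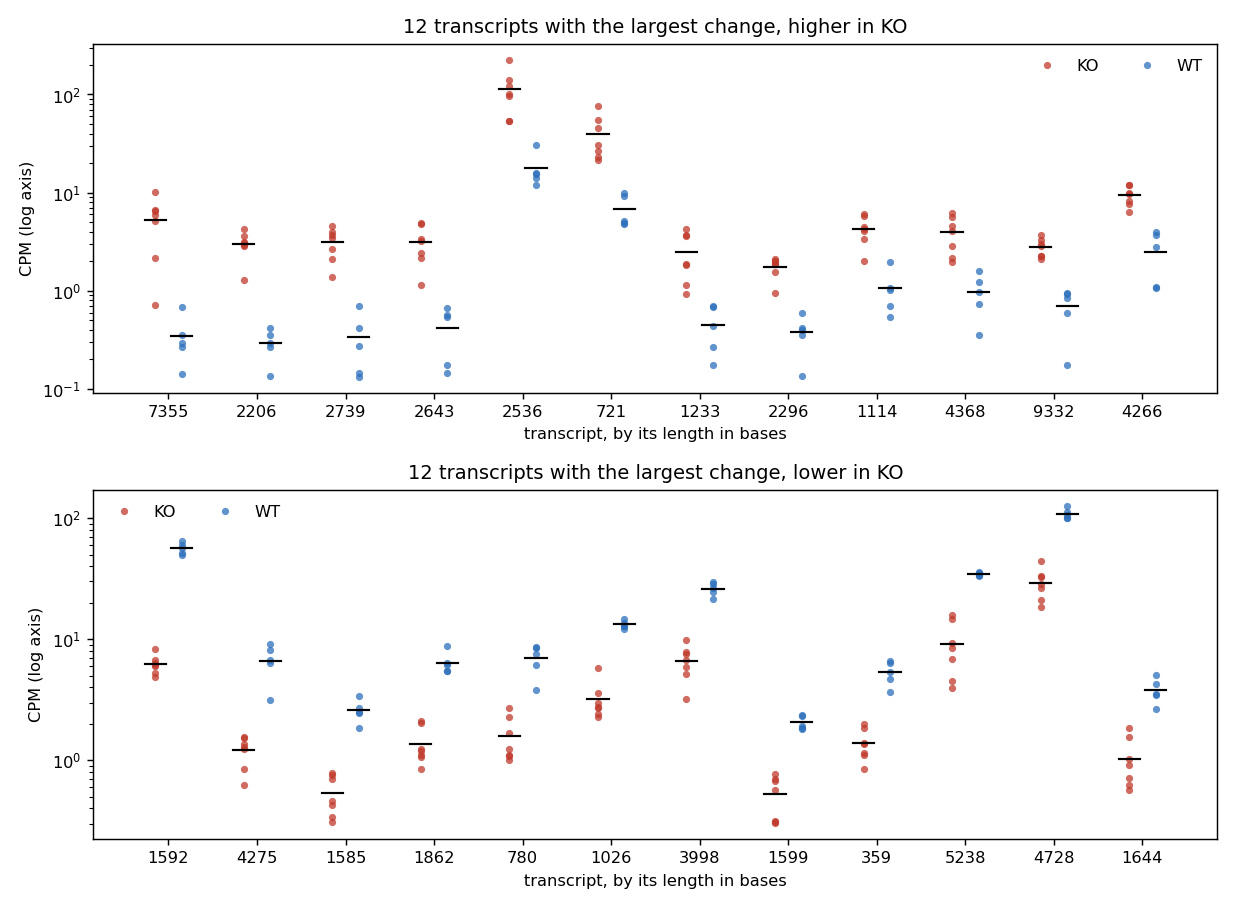
Each column is a transcript, marked by its length in bases, with CPM of every library on a log axis (KO red, left; WT blue, right; black bars are means). In all 24 the KO and WT points are separated, by the rule that chose them; the rises with the highest levels are those of 2536 and 721 bases, and the widest gap among the falls is that of 1592 bases.

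The call with the smallest adjusted p in each length class and direction is given next, and the 1592-base fall above is one of them. Under 500 bases, a transcript of 470 bases averaged 13.1 ± 3.39 CPM in 7 KO cultures and 5.81 ± 0.839 CPM in 5 WT cultures (mean ± SD), or 1.17 as a log2 fold change (edgeR adjusted p = 0.00810). This call was lost with fragment length as a covariate (edgeR adjusted p = 0.0678). One of 342 bases averaged 12.8 ± 2.05 CPM in 7 KO cultures and 32.3 ± 2.90 CPM in 5 WT cultures (mean ± SD), or -1.33 as a log2 fold change (edgeR adjusted p = 5.96e-04). Short RNAs were thus called in both directions.

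From 500 to 1000 bases the calls with the smallest adjusted p were a rise of 1.00 (656 bases) and a fall of -1.27 (694 bases) on the log2 scale, and from 1000 to 2000 a rise of 0.83 (1390 bases). From 2000 to 4000 bases a transcript of 3091 bases averaged 51.6 ± 5.65 CPM in 7 KO cultures and 22.0 ± 1.82 CPM in 5 WT cultures (mean ± SD), the smallest adjusted p of all rises named here (edgeR adjusted p = 3.26e-04). Its counterpart among the falls, of 3980 bases, averaged 34.2 ± 4.35 CPM in 7 KO cultures and 75.5 ± 8.16 CPM in 5 WT cultures (mean ± SD). The rise was 1.23 and the fall -1.14 on the log2 scale.

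Among the longest RNAs, a transcript of 8665 bases averaged 52.1 ± 6.66 CPM in 7 KO cultures and 25.2 ± 1.62 CPM in 5 WT cultures (mean ± SD), or 1.05 as a log2 fold change (SE 0.10, edgeR adjusted p = 5.96e-04). One of 13749 bases averaged 56.8 ± 6.00 CPM in 7 KO cultures and 100.7 ± 6.70 CPM in 5 WT cultures (mean ± SD), or -0.83 as a log2 fold change (SE 0.08, edgeR adjusted p = 7.00e-04). From 4000 to 8000 bases the rise was 0.96 (6947 bases) and the fall -1.02 (7540 bases) on the log2 scale. Apart from the 1592-base transcript, these calls with the smallest adjusted p changed by 0.83 to 1.33 on the log2 scale in either direction. Over all calls the median log2 fold change was 1.107 and -1.445 under 500 bases, rises before falls. At 8000 bases or more it was 0.663 and -0.502. The median SE of tested transcripts also differed, at 0.345 and 0.16 in these classes, and its part in the sizes was not tested.

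On and off changes were few among the transcripts tested. Transcripts that had under 1 estimated count in 1 or more libraries made up 6780 of those tested, and 18 were called (0.265%), 14 higher and 4 lower. Of these, 6 higher transcripts rounded to 0 counts in all 5 WT libraries, with means of 2.87 to 9.05 CPM in KO, and 2 lower ones in all 7 KO libraries, with 2.40 and 7.63 CPM in WT. Their lengths ran from 2388 to 6133 bases. Among all transcripts tested, only 10 rounded to 0 in every WT library and 2 in every KO library. Such transcripts entered the test through the other genotype alone, so the numbers called in each direction are not compared. An estimate of 0 can come from the assignment of reads among isoforms of one gene, which could not be examined without gene names.

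The genotype difference was also read within cultures that share the first number of their code, whose meaning the labels do not give. All 429 higher transcripts had a positive and all 537 lower ones a negative difference in mean log2 CPM both among codes starting with 3 (3 KO, 2 WT) and among those starting with 4 (2 KO, 3 WT). The same libraries chose the calls, so this is a description. The median difference of the higher transcripts was 0.82 within codes starting with 3 and 0.77 within those starting with 4, and that of the lower ones -0.57 and -0.69. KO 1-1 and KO 2-3 have no WT culture with their first number. With the first number as a covariate edgeR called 867 transcripts, 627 of them among the 966 in the same direction.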

How the data were processed

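RNA was sequenced from resting cortical neuron cultures, 7 KO and 5 WT, from stranded total RNA libraries, per the labels' protocols. The authors deposited, per the file headers, a length, an effective length, an estimated count and a TPM value for each transcript. Tools in the submitters' processing notes are kallisto 0.44.0, Trim Galore and DESeq2, with the builds mm9 and mm10 and no role for each. Their transcript annotation was not stated. Estimated counts were rounded and tested per transcript with edgeR 4.0.16 in R 4.3.3: TMM scaling, filterByExpr by group, a robust quasi-likelihood F-test, and Benjamini-Hochberg adjustment over all transcripts tested with a threshold of 0.05. SEs are the log2 fold change over the square root of F. CPM uses the same scaling, and log2 CPM a prior count of 2. Deposited TPM served for levels per length and for one alternative. Shares of counts per culture were compared by two-sided exact permutation of group means over 792 splits. Each edgeR p-value sets the genotype difference against the spread between these cultures, and each permutation p-value ranks it among the 792 splits.

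Named transcripts had an adjusted p under 0.05, a mean of 1 CPM or more, at least 1 estimated count in every library and no overlap between genotypes, and were the 12 with the largest change per direction, and the smallest adjusted p per length class and direction. Only 2 identifiers per direction are printed, since no table used here pairs them with genes; tests per gene, gene lists and cell type markers were not run. Alternatives covered DESeq2 1.42.0, limma 3.58.1, scaling, filtering, offsets, covariates and leaving out each library. The test was tried on simulated data first. The members and classes were chosen with earlier results of these data known. No sequence is shown.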

Additional observations from a re-analysis of the deposited data

Results flagged for a closer look

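Among 70 groups of values (the 24 transcripts with the largest changes and 11 library measures, in KO and in WT), 4 held a culture far from the rest of its genotype. Chance flags about 1 in 20 such groups. In the 2536-base transcript that rose in KO, WT 4-3 had 30.8 CPM and the next WT culture 15.9 CPM. In the 1862-base transcript that fell, WT 4-3 had 8.72 CPM and the next WT culture 6.31 CPM. In the 1026-base transcript that fell, KO 1-1 had 5.8 CPM and the next KO culture 3.57 CPM. All 3 transcripts were called under each of 25 alternatives, those that leave out these cultures included. In the share of counts from transcripts of 2000 to 4000 bases, KO 3-3 had 28.2% and the next KO culture 27.6%.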

How the results depend on the processing

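The count of 966 calls (429 higher, 537 lower; 156 and 92 of them at least 2-fold) stayed within 1.5 times under 10 of 13 alternatives other than leaving out 1 library; 2 of these 10 leave out KO 1-1 and KO 2-3 together. The calls were not all the same ones: 627 of the 966 were kept with the first number of the code as a covariate, and 639 with it among codes 3 and 4. With DESeq2 the count was 1898 (933 and 965; 333 and 166 at least 2-fold), without a low-count filter 456 (205 and 251; 101 higher at least 2-fold) and with fragment length as a covariate 268 (136 and 132; 64 and 44). The causes were not tested. Leaving out 1 library gave 439 to 967 calls, 215 to 468 higher, 218 to 556 lower, and 95 to 173 and 66 to 110 at least 2-fold. Lower calls alone also dropped to 355 without KO 3-3 and to 337 without WT 4-3. Of 35 named transcripts, 26 were called under every alternative that gave a value and none changed direction; 27 were called with fragment length as a covariate. For the share of counts from 2000 to 4000 bases, leaving out 1 culture gave -0.370 to -0.218 percentage points, past the threshold only without KO 3-3 (-0.370). Shares of TPM in place of counts turned the difference for 1000 to 2000 bases from 0.253 to -0.450 percentage points (exact permutation, adjusted p = 0.0303); TPM weights transcripts by 1 over length. No paired analysis was possible because KO and WT cultures share no code. Precision was lowest in the lowest level class, the part of depth in this was not tested, and estimates for isoforms of one gene are not independent.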

Other observations

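The SD between cultures was larger in KO than in WT for most of the transcripts tested. The median SD of log2 CPM was 0.43 in KO and 0.37 in WT, and the SD was larger in KO for 59.6% of transcripts. In the highest level class it was larger in KO for 65.8%. Without KO 4-8, the culture that stood apart on the first principal component, these shares were 54.6% and 56.9%. The difference in spread was not tested. The SDs rest on 7 KO and 5 WT cultures. KO codes start with 1, 2, 3 or 4 and WT codes only with 3 or 4. The spread is therefore not read as a difference between genotypes.

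Some transcripts carried the same estimates as another in all 12 libraries. This held for 677 of the 32904 tested and for 12 of the 966 called, which form 6 pairs of equal length, 1 higher and 5 lower in KO. Each such pair counts as 2 calls.

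The 7355-base and 2536-base transcripts, both among the largest rises, shared some of their extreme cultures; the pair was chosen after their values were seen. In both, KO 3-3 was the highest of all cultures (10.3 and 226 CPM), KO 2-3 (0.712 and 53.8 CPM) and KO 3-5 (2.17 and 53.5 CPM) were the lowest KO cultures, and WT 4-3 (0.681 and 30.8 CPM) was the highest WT culture. The pattern was not particular to this pair. KO 3-3 was also the highest culture for the rises of 2206, 2643 and 4368 bases. KO 2-3 and KO 3-5 were also the lowest KO cultures for those of 2643 and 1233 bases. Not all of the 12 rises showed it: for that of 721 bases KO 3-3 was the lowest KO culture. Without gene names it was not tested whether the 7355-base and 2536-base transcripts come from one gene.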
